A study of Mus musculus with 6 samples.

Results

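The 10 genes described here are best known from germ cells: Rbm46, Tcfl5, Cpeb1, Ddx43, Dazl, Ddx4, Mael, Sycp3, Stk31 and Taf7l. All probe sets that the platform annotation names for them were taken, detected or not, which gave 13 probe sets out of 45101 on the array and 10 of 18193 named genes. The genes were chosen by their roles in germ cells together with values of the same comparison that is described here, control against deletion arrays. Their differences are therefore given as a description, with no test.

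RNA from mouse dental pulp was hybridised to 6 Affymetrix expression arrays, 3 per group, each labelled a biological replicate. All mice carried Ring1a-/- and CreERT2. The control mice were labelled Ring1b flox/flox and received corn oil, and the deletion mice were labelled Ring1b cko/cko and received 4-hydroxytamoxifen at 40 mg/kg. Injections were given at postnatal days 9 and 13 and tissue was taken at day 17. Ring1a was thus missing in both groups, and drug and Ring1b deletion cannot be told apart. The labels do not name the promoter that drives CreERT2, so the cells that lost Ring1b are not known here.

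Germ cells run programmes that somatic cells keep silent: RNA-binding proteins that time translation, the piRNA pathway that restrains transposons, and the chromosome axes of meiosis. In mouse embryonic stem cells many of these promoters are repressed by DNA methylation and by the variant Polycomb complex PRC1.6, in which Ring1a or Ring1b joins Pcgf6, L3mbtl2, Mga, Max and E2f6. Mga with Max binds E-boxes, and E2f6 binds E2F-type sites.

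Between 53.8% and 57.9% of probe sets were called Present per array, the MAS5 call for a probe set whose perfect match probes exceed their mismatch probes. The 3 odontoblast markers, the 6 markers of pulp mesenchyme and the 7 of dental epithelium were Present on every array, so the samples held epithelium beside pulp. In bulk tissue, fewer cells of a type and less RNA per cell cannot be told apart. The replicate 1 arrays of both groups deviated together from their group means (r = 0.485 over 12250 genes), and the members' differences are given with and without them. Rnf2, which encodes Ring1b, had signals of 2693, 2440 and 2233 in control and 3165, 3550 and 2831 in deletion on the probe set with the highest level, so its transcript was not lower on the arrays labelled deletion. A second Rnf2 probe set had 1017, 1326 and 1195 in control and 1507, 1860 and 1744 in deletion, and the other 3 for Rnf2 and the 1 for Ring1 were Present on no array. Their position in relation to the excised exons is not known here, so they check no label.

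The members fell into 3 patterns. Rbm46, Tcfl5, Cpeb1 and Ddx43 were higher on all 3 deletion arrays than on any control array. Sycp3 was detected on all 6 arrays at overlapping levels. Dazl, Ddx4, Mael, Stk31 and Taf7l had at most 1 Present call in either group. The 4 higher genes encode 2 RNA-binding proteins, a helicase and a transcription factor.

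**Figure D1:**
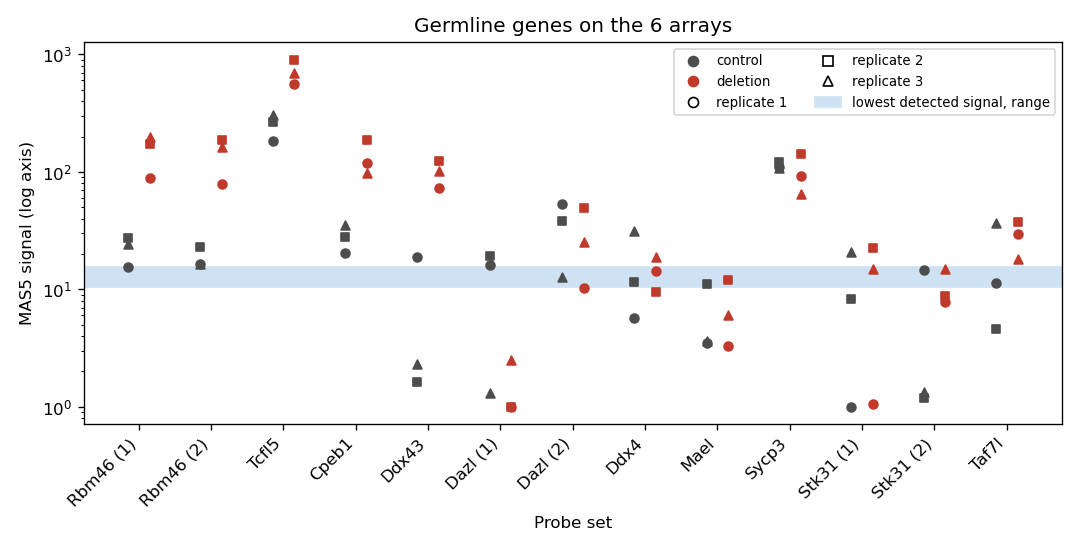
MAS5 signal (log axis) of each member probe set on each array, with control in grey, deletion in red and replicates by symbol; signals under 1 are drawn at 1. The band spans 10.5 to 15.5, the lowest signal of reliably detected probe sets, and only Rbm46, Tcfl5, Cpeb1 and Ddx43 have every deletion point above every control point.

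Rbm46 is an RNA-binding protein that germ cells need to enter and complete meiosis. Its first probe set had signals of 15.6, 27.6 and 24.2 in control replicates 1, 2 and 3, and of 88.7, 173 and 197 in the deletion replicates. The second probe set had 16.5, 23.1 and 16.5 in control and 79.1, 188 and 162 in deletion. Both probe sets thus separated the groups, and deletion replicate 1 was the lowest of the deletion arrays on each. On the log2 scale the first differed by 2.73 ± 0.46 (SE), or 6.62-fold, and the second by 2.86 ± 0.52, or 7.27-fold. Set against the control array of the same number, the first probe set was higher by 2.51, 2.65 and 3.02 for replicates 1, 2 and 3. The first probe set was Present on all 3 control arrays and the second on 1, and both were Present on all 3 deletion arrays, so the low control level was partly measured and not only a bound.

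Tcfl5 encodes a basic helix-loop-helix factor that acts in spermatocytes during meiotic prophase. Its signals were 183, 267 and 303 in control and 559, 901 and 695 in deletion. The lowest deletion array lay above the highest control array, and the probe set was Present on all 6 arrays. The mean log2 signal was 7.94 ± 0.38 in control and 9.46 ± 0.34 in deletion (SD, n = 3), and they differed by 1.52 ± 0.26 (SE), or 2.87-fold. It had the smallest difference of the 4 higher members.

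Cpeb1 binds the cytoplasmic polyadenylation element of stored mRNAs and times their translation in maturing oocytes, and neurons use it as well. It had signals of 20.6, 27.7 and 35.4 in control, with no Present call, and of 120, 187 and 98.3 in deletion, Present on all 3 arrays. The groups did not overlap. The detection floor is each array's lowest signal over the probe sets that all 3 arrays of its group called Present. The control signals of Cpeb1 lay above it, so the floor leaves the fitted 4.78-fold as it is. With no Present call the control level was not detected, and that fold is at best a lower bound. On the log2 scale the difference was 2.26 ± 0.42 (SE), and by replicate number it was 2.54, 2.76 and 1.47.

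Ddx43 is a DEAD-box RNA helicase of testis that is also known from tumours. Its signals were 19, 1.63 and 2.33 in control, Present on no array, and 73.2, 123 and 101 in deletion, Present on all 3. Control replicate 1 stood well above the other control arrays, yet below every deletion array. With control levels raised to the detection floor of each array the gene was 6.49-fold higher in deletion. That value depends on the floor: with every signal under 16 set to 16, the log2 difference was 2.52. It is no strict lower bound, since undetected signals can lie above the floor, as 19 did in control replicate 1. The fitted log2 difference, 4.54 ± 0.95 (SE) or 23.3-fold, depends on control signals under the floor and is no estimate of the fold.

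Across the 12250 genes tested, 325 passed limma at an adjusted p under 0.05 in either direction (2.65%) and 232 of them rose (1.89%). Of the 10 members 5 were detected often enough to be tested, and 4 of these were among the risen genes, which describes how they were picked. All 3 deletion arrays lay above all 3 control arrays in 12.2% of the genes tested and in the same 4 members. Cpeb1 and Ddx43 went from no Present call in control to 3 in deletion, as 107 of 18193 genes did (0.588%). Leaving out control replicate 2, deletion replicate 2 or deletion replicate 3 left 0 members called, and leaving out deletion replicate 1 left 2. These 4 fits called 94, 196, 148 and 218 genes in all, against 325. With no detection filter, or over genes Present on all 6 arrays, Rbm46 and Tcfl5 alone passed, in fits that called 256 and 204 genes. Quantile normalization, the mean of a gene's probe sets, the fit without control replicate 3 and the fit without both replicate 1 arrays each kept 3. They called 307, 303, 188 and 500 genes in all. The replicate number as a block kept all 4, in a fit that called 10.6% of all genes. Without both replicate 1 arrays the log2 differences were 2.84 for Rbm46, 1.48 for Tcfl5, 2.11 for Cpeb1 and 5.84 for Ddx43. Every deletion array lay above every control array in these 4, so leaving arrays out could not change their sign.

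Over the 6 arrays the log2 signals of Rbm46, Tcfl5 and Cpeb1 followed each other closely, with Pearson r between 0.94 and 0.98 for the 3 pairs, and those of Ddx43 less closely, with r between 0.75 and 0.80. These correlations are a description over 6 arrays that share the group difference. Sycp3 had r between -0.36 and -0.15 with the 4 higher members. By the likeness rule, Pearson r to the mean standardised profile of the 5 tested members, the nearest genes were Slc19a2 (r = 0.993), a thiamine transporter, and Foxc1 (r = 0.992), a forkhead factor of cranial mesenchyme. Fabp3, Kifc3 and Ppp1r36 followed at 0.991, 0.990 and 0.985. Slc19a2 had signals of 209, 251 and 241 in control and 385, 535 and 368 in deletion. The log2 differences of the 5 ran from 0.35 to 0.86, with no test given, since the genes were chosen by their profile on these arrays.

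Sycp3 builds the axial element of the synaptonemal complex, along which meiotic chromosomes pair. Its signals were 110, 122 and 109 in control and 91.8, 141 and 65 in deletion, and it was Present on every array. The deletion arrays lay on both sides of the control arrays. The mean log2 signal was 6.83 ± 0.09 in control and 6.56 ± 0.56 in deletion (SD, n = 3), and their difference was -0.27 ± 0.35 (SE). It was the only meiotic chromosome component among the members and the only detected member that did not separate the groups.

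Dazl, an RNA-binding protein that licenses germ cells for meiosis, had 2 probe sets. The better detected one had signals of 53.3, 38.2 and 12.7 in control and 10.3, 49.1 and 25.5 in deletion, Present on 1 array of each group. The other was Present on none, and its signals ran from 1.31 to 19.3 in control and from 0.885 to 2.51 in deletion. Neither probe set separated the groups. Ddx4, the helicase Vasa of the germ granule, was Present on no array, with signals of 5.73, 11.6 and 31.7 in control and 14.3, 9.45 and 18.9 in deletion. Mael, a piRNA pathway factor, was also Present on none, with 3.5, 11.2 and 3.6 in control and 3.29, 12 and 6.06 in deletion. The groups overlapped for both genes.

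Stk31, a testis kinase-like protein with a Tudor domain, had 1 Present call, in control, over its 2 probe sets. Its signals ran from 0.507 to 20.7 in control and from 1.05 to 22.3 in deletion on the first probe set, and from 1.19 to 14.7 and from 7.87 to 15 on the second. Taf7l, a germ cell counterpart of a TFIID subunit, was Present on no array and had 11.3, 4.63 and 36.9 in control and 29.4, 37.5 and 18.1 in deletion. The groups overlapped on all 3 of these probe sets. With no detection filter the fitted log2 differences were -0.34 ± 0.79 (SE) for Dazl, 0.09 ± 0.81 for Ddx4, 0.25 ± 0.93 for Mael, 0.35 ± 1.45 for Stk31 and 1.12 ± 0.84 for Taf7l. These rest on signals that were mostly undetected.

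The windows of 250 bases before the gene start are shown for the 4 higher members, which were picked with values of this comparison known. Those of Ddx4 and Dazl are shown as members with at most 1 Present call in either group. They are RefSeq sequences of GRCm38.p6, written 5′ to 3′ on the strand of the gene. The windows are chr3:82876484-82876733 (minus strand) for Rbm46, chr2:180642692-180642941 (minus) for Tcfl5, chr7:81454759-81455008 (minus) for Cpeb1, chr9:78395527-78395776 (plus) for Ddx43, chr13:112652311-112652560 (minus) for Ddx4 and chr17:50293621-50293870 (minus) for Dazl. Capitals mark the E-box CACGTG and the E2F-type site GCGGGA or its complement TCCCGC.
Rbm46: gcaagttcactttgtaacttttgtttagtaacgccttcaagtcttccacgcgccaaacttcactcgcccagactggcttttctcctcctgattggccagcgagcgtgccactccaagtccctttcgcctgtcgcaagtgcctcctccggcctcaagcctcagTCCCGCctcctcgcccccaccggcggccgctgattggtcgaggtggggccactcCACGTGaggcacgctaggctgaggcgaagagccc
Tcfl5: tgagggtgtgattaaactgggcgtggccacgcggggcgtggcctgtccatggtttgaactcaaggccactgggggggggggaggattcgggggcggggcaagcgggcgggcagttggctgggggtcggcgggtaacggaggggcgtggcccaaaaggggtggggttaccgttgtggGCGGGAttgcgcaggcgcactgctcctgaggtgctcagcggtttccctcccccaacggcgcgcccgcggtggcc
Cpeb1: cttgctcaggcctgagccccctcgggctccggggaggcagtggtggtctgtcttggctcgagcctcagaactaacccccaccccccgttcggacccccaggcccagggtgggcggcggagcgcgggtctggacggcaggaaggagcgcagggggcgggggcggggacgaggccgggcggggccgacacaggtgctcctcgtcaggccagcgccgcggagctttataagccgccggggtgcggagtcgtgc
Ddx43: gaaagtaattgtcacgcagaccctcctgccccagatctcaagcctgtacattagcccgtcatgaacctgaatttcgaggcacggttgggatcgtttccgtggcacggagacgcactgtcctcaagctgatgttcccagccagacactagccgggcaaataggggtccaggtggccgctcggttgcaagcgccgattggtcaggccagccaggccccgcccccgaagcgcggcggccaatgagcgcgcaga
Ddx4: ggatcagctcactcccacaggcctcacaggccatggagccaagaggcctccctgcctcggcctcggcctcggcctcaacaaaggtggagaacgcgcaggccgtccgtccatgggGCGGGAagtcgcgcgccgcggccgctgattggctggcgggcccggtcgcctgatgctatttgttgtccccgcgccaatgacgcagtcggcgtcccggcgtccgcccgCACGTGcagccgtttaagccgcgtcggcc
Dazl: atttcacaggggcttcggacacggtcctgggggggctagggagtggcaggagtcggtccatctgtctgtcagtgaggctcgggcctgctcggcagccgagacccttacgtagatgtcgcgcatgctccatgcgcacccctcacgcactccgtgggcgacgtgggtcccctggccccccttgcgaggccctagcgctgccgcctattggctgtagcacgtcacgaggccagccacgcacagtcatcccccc

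All 10 members matched the RefSeq table, with 11 windows since Stk31 has 2 that overlap. CpG dinucleotides occurred at 0.64 to 1.13 times the number that base composition gives, against a median of 0.37 over 32851 windows, of which 34% reached 0.6. An E-box on either strand was found in 6 of 10 members (Rbm46, Ddx4, Mael, Sycp3, Stk31 and Taf7l), against 6.02% of all windows and 9.49% of those with a CpG ratio of at least 0.6. The E2F-type site was found in 5 (Rbm46, Tcfl5, Ddx4, Mael and Sycp3), against 16.9% and 37.5%. Both motifs stood in Rbm46, Ddx4, Mael and Sycp3, against 1.45% and 3.54% of windows. Of the 4 higher members Rbm46 held both, Tcfl5 the E2F-type site alone, and Cpeb1 and Ddx43 neither. Ddx4, Mael and Sycp3 held both. Of these Sycp3 was detected at overlapping levels, while Ddx4 and Mael were Present on no array, so their signals show no measured level. A link between motifs and differences was not tested. These are 2 of 6 motifs searched in the members' windows, and they were picked for display after all 6 had been looked at. The other 4, with the number of members and the share of all windows that hold them on either strand, were GGCGGG (8 of 10 members, 32.5%), CCAAT (5, 33.8%), CACATG (0, 12.3%) and TGACGTCA (0, 1.55%). Among windows with a CpG ratio of at least 0.6, GGCGGG was in 66.8%, CCAAT in 33.4%, CACATG in 5.42% and TGACGTCA in 3.25%. GGCGGG can overlap GCGGGA, and the marked sites overlap none of each other. A match is a run of letters and not a bound site.

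**Figure D2:**
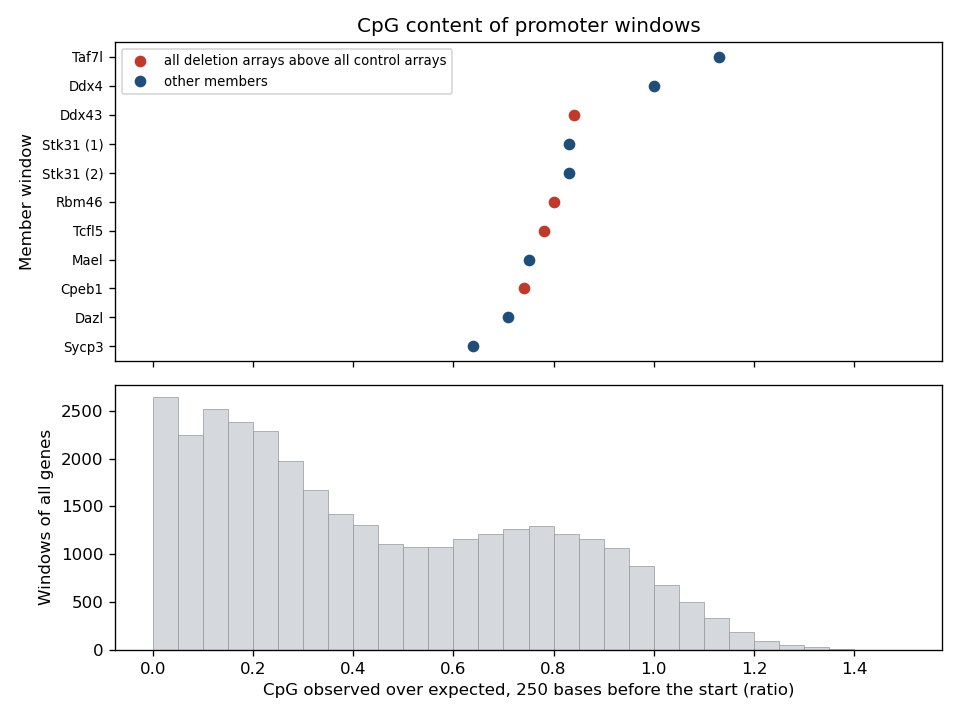
The upper panel gives the CpG observed over expected ratio of each member window, red for members with all deletion arrays above all control arrays and blue for the others, and the lower panel the number of windows of all genes per ratio. All member windows lie between 0.64 and 1.13, and the red points lie among the blue ones.

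Each member lies on a chromosome of its own, so none neighbours another. Around the 5 tested members, the nearest tested gene on each side was compared by position in RefSeq, 10 genes in all. Of these 1 passed the test, against 2.65% of all genes tested. With the replicate block 3 passed, in a fit that called 10.6% of all genes. Pde8a, a cAMP phosphodiesterase beside Cpeb1, rose by 1.13 ± 0.19 (SE) in log2 signal (adjusted p = 0.019 in limma). Map9 and Plrg1 beside Rbm46 had differences of -0.44 ± 0.20 and -0.24 ± 0.23, and Col9a3 and Dido1 beside Tcfl5 had 0.08 ± 0.22 and 0.15 ± 0.18. Beside Ddx43, Cgas, a sensor of cytosolic DNA, had a difference of 0.77 ± 0.22 with an adjusted p of 0.111 in limma, and 0.0449 with the replicate block. Ooep, itself an oocyte gene, had -0.62 ± 0.31 with an adjusted p of 0.414 in limma, and 0.0471 with the replicate block.

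Other germline genes were examined from 5 lists of 117 genes, of which 108 were named on the array and 34 were detected often enough to be tested. Of these 34, 2 were found through RefSeq synonyms, a step added after the data had been seen. Among the 34, 1 rose and none fell, which is 1 of 34 against the 2.65% called among all genes. The median log2 difference was 0.10, against 0.02 over all genes tested, and 18 had higher and 16 lower means in deletion. The groups did not overlap in 11 of the 34, 5 higher and 6 lower, against 20.8% of all genes tested. Of the 108 genes 58 had no Present call on any array, and none of the 108 went from no Present call in control to 3 in deletion. With the replicate number as a block 1 rose and 4 fell, in a fit that called 10.6% of all genes.

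**Figure D3:**
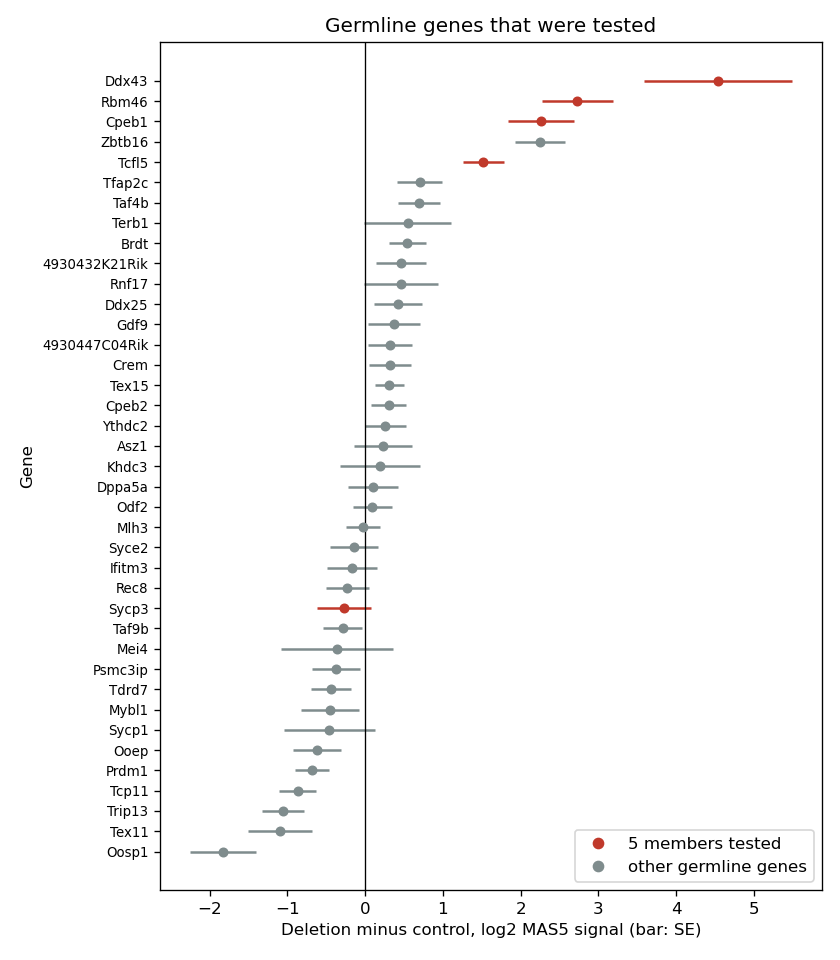
Deletion minus control difference of log2 signal with its SE (bar) for the 5 tested members in red and 34 other germline genes in grey. Ddx43, Rbm46, Cpeb1 and Tcfl5 stand at the upper end with Zbtb16 among them, Sycp3 lies near 0 and Oosp1 is lowest at -1.83. The point of Ddx43 depends on control signals under the detection floor and is no estimate of its fold.

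Among 5 tested genes of germ cell specification and pluripotency, Zbtb16 rose. It encodes PLZF, a zinc finger repressor of spermatogonial stem cells that limb and skeletal cells also use. Its signals were 99.6, 59.7 and 116 in control and 447, 320 and 519 in deletion, every deletion array above every control array. Its log2 signal rose by 2.25 ± 0.32 (SE), which is 4.76-fold, with an adjusted p of 0.00863 in limma, and it passed in all 14 alternatives. Prdm1 and Tfap2c, regulators of primordial germ cell fate that somatic tissues share, had differences of -0.68 ± 0.22 and 0.70 ± 0.29 with adjusted p of 0.17 and 0.292 in limma. Ifitm3, an interferon-induced membrane protein, had a difference of -0.17 ± 0.32. Pou5f1, Nanog and Dppa3 belong to the same list and were not tested.

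None of 14 tested meiosis genes changed in limma. Trip13, an ATPase of meiotic axes and of the mitotic checkpoint, had a difference of -1.06 ± 0.27 (limma adjusted p = 0.0814). With the replicate block Trip13 passed (adjusted p = 0.0137). Tex11, an X-linked factor of meiotic recombination, had signals of 64.8, 75.5 and 62.8 in control and 25.2, 35.7 and 34.9 in deletion. Every control array and no deletion array called it Present, the only one of the 108 genes with that pattern, and did not pass (limma adjusted p = 0.236). Tex15 had 0.31 ± 0.19 and 4930432K21Rik had 0.46 ± 0.32, and the median of the list was -0.18. The meiosis list held 35 named genes, of which 9 were Present on all 3 arrays in each group.

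None of 5 oocyte genes passed in limma. With the replicate block 2 fell, Oosp1 and Ooep, in a fit that called 10.6% of all genes. Ooep had a difference of -0.62 ± 0.31 (limma adjusted p = 0.414, and 0.0471 with the block). Oosp1, a secreted oocyte protein, had signals of 121, 120 and 137 in control and 24.2, 30.5 and 59.6 in deletion. All deletion arrays lay below all control arrays. Its log2 difference was -1.83 ± 0.42 (SE) with an adjusted p of 0.0584 in limma, and it passed in 5 of 14 alternatives with an adjusted p between 0.0164, with the replicate block, and 0.208. Gdf9, an oocyte growth factor, was Present on all arrays with a difference of 0.37 ± 0.33, and the translational regulator Cpeb2, a paralogue of Cpeb1, had 0.30 ± 0.22.

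Of 6 tested genes of late spermatogenesis none passed, and of 4 piRNA pathway genes none passed. Tcp11, a testis protein of sperm function, had a difference of -0.87 ± 0.24 (limma adjusted p = 0.106) and passed with the replicate block (adjusted p = 0.0164). Taf4b, a TFIID subunit of gonads, had 0.69 ± 0.27 (adjusted p = 0.259), and the testis bromodomain gene Brdt had 0.54 ± 0.24 (adjusted p = 0.342), both in limma, and the cAMP-responsive factor Crem had 0.32 ± 0.27. Tdrd7, a Tudor protein of germ granules, had -0.44 ± 0.26, Ddx25 had 0.42 ± 0.31, Rnf17 had 0.46 ± 0.48 and Asz1 had 0.23 ± 0.37. The protamine and transition protein genes Prm1 and Tnp1, products of spermatids, and Zp3 of the egg coat were Present on no array.

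**Figure D4:**
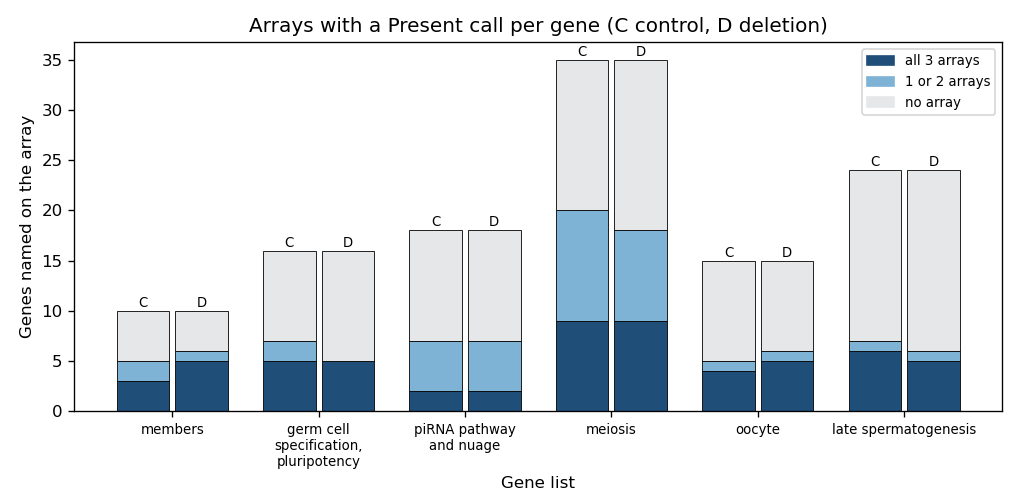
Number of genes per list whose best detected probe set was Present on all 3, on 1 or 2, or on no array, with control (C) and deletion (D) side by side. Members Present on all 3 arrays number 3 in control and 5 in deletion, while the meiosis list has 9 in each group and late spermatogenesis 6 and 5.

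Markers of germ cells as a list were near the limit of detection in both groups. Of the 12, which include 6 of the members, 7 lacked any Present call in control and 8 in deletion, and Sycp3 and Gdf9 were Present on all arrays. Their summed signal ranged from 385 to 511 in control and from 329 to 547 in deletion. Of the 3 neutrophil markers S100a9 alone passed limma, and S100a8 passed with the replicate block (adjusted p = 0.104, and 0.0386 with the block). The 3 summed to 673 to 2808 in control and 163 to 531 in deletion, and S100a9 had a log2 difference of -2.87 ± 0.49 (adjusted p = 0.0188 in limma). The 2 erythroid markers summed to 130 to 505 in control and 47 to 58 in deletion, with 2 Present calls for Alas2 in control and no other, and neither was tested. Dental epithelium markers summed to between 81010 and 125001 in control and between 35834 and 168303 in deletion. Of these 7 markers 3 had higher and 4 lower means in deletion, and none passed limma. With the replicate block 1 rose and 2 fell, in a fit that called 10.6% of all genes. They were Klk4 with a log2 difference of 0.98 ± 0.25 (SE), Epcam with -1.08 ± 0.43 and Cdh1 with -1.06 ± 0.44. Odontoblast markers summed to between 80094 and 102396 in control and between 78211 and 94053 in deletion. The part of these cell types in the members' differences was not tested.

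PRC1.6 and DNA methylation keep many germline promoters silent in embryonic stem cells, and lists of regulators linked to each were measured on the same arrays. The DNA methylation list is broad. It also holds the Tet genes, whose products oxidise methylated cytosine, and Setdb1, Trim28, Ehmt1 and Ehmt2, which do not methylate DNA themselves. None of 10 tested PRC1.6 subunits passed limma, and the median log2 difference was -0.08. Those with the smallest p were Rnf2 with 0.37 ± 0.17 (SE), the deacetylase Hdac2 with -0.38 ± 0.18 and the E2F partner Tfdp1 with -0.38 ± 0.21. Of 11 tested genes of the DNA methylation list 1 fell, against 2.65% of all genes called in either direction. With the replicate number as a block 3 fell and 1 rose, in a fit that called 10.6% of all genes. Uhrf1, which brings Dnmt1 to replicating DNA, had signals of 830, 1141 and 1789 in control and 261, 545 and 284 in deletion, a log2 difference of -1.80 ± 0.35 (limma adjusted p = 0.0307, and between 0.00211 and 0.119 over 14 alternatives). The chromatin remodeller Hells had -1.32 ± 0.30 (limma adjusted p = 0.0545, and 0.00591 with the block) and the maintenance methyltransferase Dnmt1 had -0.61 ± 0.18 (limma adjusted p = 0.125, and 0.025 with the block). Tet2, which oxidises methylated cytosine, had 0.68 ± 0.21 (limma adjusted p = 0.142, and 0.0286 with the block) and is named as the 1 that rose there. Uhrf1, Hells and Dnmt1 are also known from dividing cells. DNA methylation itself was not measured on these arrays.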

How the data were processed

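Total RNA of dental pulp was amplified as cDNA, transcribed in vitro and labelled with biotin before hybridisation, per the labels' protocols. The deposited values are MAS5 signal intensities per probe set on a linear scale, per the submitters' processing notes and the file headers, and the authors' arrays had a mean of 500.0 after trimming 2% at each end. Present calls were read from the deposited workbook. Its column names give a letter for the group and a number or suffix that matches no replicate number for certain, so the calls are counts per group. The suffix differs between columns within each group, and what it marks is not known here. A further 12 of its columns with values of single samples were left aside. Array software version and genome build are not given in the sources used here.

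Probe sets with 1 symbol in the platform annotation (34958 of 45101, with 932 having several and 9211 none) that were called Present on 3 or more of the 6 arrays were kept, and the one with the highest mean log2 signal stood for its gene. Signals under 1 were set to 1. The 2 groups were tested in R 4.3.3 by limma 3.58.1, using lmFit and a trended eBayes. The test was two-sided with Benjamini-Hochberg adjustment over 12250 genes and a threshold of 0.05, and was checked on simulated data. Each SE is from that fit. Probe sets outside it were fitted over all probe sets with 1 symbol. With 3 arrays a group, their number limits the precision.

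Replicate numbers come from the sample titles. Same-numbered arrays deviated together from their group means, with r of 0.485 for replicate 1, 0.189 for replicate 2 and 0.286 for replicate 3, all over 0.1, so the block was run as an alternative. Control replicate 3 with deletion replicate 2 gave 0.213. Alternatives also covered normalization, low signals, detection, probe sets, the trend and each array left out. The members and gene lists were chosen with earlier results of these data known. Genes named are the members, Rnf2, the genes with the smallest p in each list (up to 4, or 3 for regulators), the 5 of nearest profile and the fixed cell type markers. Chosen after seeing the data were the synonym matching, the neighbours by position, the count of genes gaining detection, the count of members called, the fit without both replicate 1 arrays, and which 2 of 6 searched motifs are marked. Tet2, the neighbours and Pou5f1, Nanog and Dppa3 were named after values were seen.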

Additional observations from a re-analysis of the deposited data

How the results depend on the processing

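With 3 arrays a group, single arrays decide how many genes pass. The number of genes changed was 325, and it was 1302 with the replicate block, 204 among genes Present on all 6 arrays, 500 without both replicate 1 arrays, an alternative chosen after seeing the data, and between 94 and 300 with 1 array left out, lowest without control replicate 2. The members were chosen by values of this comparison, so the next counts are a description. Of the members 4 passed, against 2 with no detection filter, 2 among genes Present on all 6 arrays, and 0 to 4 with 1 array left out. That count and its alternatives were added after seeing the data. Of the other germline genes 1 passed, against 2 with quantile normalization, 2 with a floor of 16 (Oosp1 in both), 3 with no intensity trend, 5 with the replicate block and 1 to 2 with 1 array left out. Over the alternatives the difference of Rbm46 ranged from 2.48 to 3.08, Tcfl5 from 1.31 to 1.69, Cpeb1 from 2.0 to 2.46 and Ddx43 from 2.52, with a floor of 16, to 5.84. These 4 were picked as higher and had every deletion array above every control array, so leaving arrays out could not change their sign. Sycp3 ranged from -0.56 to 0.00 and kept its sign in 13 of 14. Cpeb1 and Ddx43 could not be fitted among genes Present on all 6 arrays. Dazl, Ddx4, Mael, Stk31 and Taf7l were too rarely detected to be tested.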
